A study of Homo sapiens with 2 samples.

Results

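The TRIM genes encode tripartite motif proteins, most of which are ubiquitin ligases. The members were all genes whose symbol in the array annotation is TRIM followed by a number, with or without a final L. Of 19775 genes read by at least 1 probe set with a single symbol, 56 were members, and each was represented by its probe set with the highest mean of the 2 arrays. Expression had been measured in U251 cells, a human glioma line, with Affymetrix HG-U133_Plus_2 arrays, whose probes lie near the 3' ends of transcripts. There were 2 groups of 1 array each: U251 cells transfected with hsa-miR-31, a microRNA, and U251 cells transfected with a control. Both were grown in DMEM with 10% fetal bovine serum, and 250 ng of total RNA was labelled for each array. The construct, the time of harvest and whether the cells came from 1 clone are not stated in the labels. The members and the gene lists below were set with earlier results of these arrays known.

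A TRIM protein carries a RING domain that recruits a ubiquitin-conjugating enzyme, 1 or more B-box zinc fingers and a coiled coil through which it forms dimers. The C-terminal domain differs between subfamilies and binds the target: a SPRY domain in the largest subfamily, a PHD finger with a bromodomain in the chromatin subfamily, NHL repeats, or a COS box that attaches to microtubules. Several SPRY members are known as interferon-induced antiviral factors, and others act on the sensors of viral RNA or dampen that signalling. A few family members lack the RING and are thought to act as adaptors.

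Since several members are known to be interferon-induced, their promoters were searched for the core of the interferon-stimulated response element, GAAA followed after any 2 bases by GAAA, on both strands, from 250 bases before to 50 after each annotated transcription start (RefSeq, GRCh38.p14). The matching stretches are shown for the 5 members of the interferon list described below that hold the element, with the matched bases in capitals, read 5′ to 3′ on the strand of the gene. Where the capitals begin with TTTC, the match lies on the opposite strand.
TRIM14, chr9:98119223-98119268, minus strand: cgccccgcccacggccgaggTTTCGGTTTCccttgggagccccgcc
TRIM5, chr11:5685075-5685121, minus strand: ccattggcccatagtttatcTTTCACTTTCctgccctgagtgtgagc
TRIM69, chr15:44736446-44736495, plus strand: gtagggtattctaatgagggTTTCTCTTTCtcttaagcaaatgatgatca
TRIM21, chr11:4393663-4393692, minus strand: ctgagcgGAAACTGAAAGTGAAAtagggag
TRIM26, chr6:30213565-30213620, minus strand: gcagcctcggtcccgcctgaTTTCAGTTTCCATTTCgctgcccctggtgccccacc

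In TRIM14 and TRIM5 the match began 26 and 27 bases before the start, and in TRIM69 62 bases before it. TRIM21 and TRIM26 each held 2 overlapping matches, in TRIM21 beginning at base 18 of the transcript and in TRIM26 194 bases before the start. The promoter table matched 43 of the 56 members, with 58 promoters. Of these promoters 8 held the motif (13.8%), against 1255 of all 35116 promoters in the table (3.57%). On the list of members reported as interferon-inducible, 5 of the 8 matched genes held it, each with 1 promoter in the table. TRIM25, TRIM38 and TRIM56 on that list were matched and did not hold it. Of the other 35 matched members it was held by TRIM2, TRIM16 and TRIM44, and not by TRIM6. A match is a description of the letters, and binding was not measured. A second motif, TTCNNNGAA, which reads the same on both strands and is the core of the gamma-activated site, was added after the values were seen. It lay in 10 of the 58 TRIM promoters (17.2%), in 2689 of all promoters (7.66%) and in 0 of the 8 on the interferon list. TRIM11, TRIM13, TRIM16L, TRIM22, TRIM24, TRIM27, TRIM28, TRIM29, TRIM35, TRIM4, TRIM45, TRIM55 and TRIM8 had no entry in the table.

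The transfected microRNA is shown with its seed, bases 2 to 8, in capitals (RefSeq, GRCh38.p14, chr9:21512158-21512178, minus strand). The mature microRNA was not read by the probe sets used, and target sites in the TRIM transcripts were not searched here.
hsa-miR-31-5p: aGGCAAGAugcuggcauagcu

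Values are the intensities the authors deposited, in arbitrary units. The ratio of a gene is log2(intensity + 16) of the miR-31 array minus that of the control array. A positive ratio means higher in the miR-31 array, and the added 16 makes the ratios of dim genes too small. A gene passed the filter on low values if its mean level on that scale was at or above that of the middle probe set, which is 62.7 in intensity. Each group has 1 array, so there is no spread between replicates, no p-value was computed, and all differences are between 2 RNA samples. As a gauge of measurement noise, 3142 genes with exactly 2 probe sets past the filter gave an SD of 0.33 for a single probe set's ratio, which leaves out differences between cultures. Ratios varied more at low levels, with a robust SD of 0.56, 0.43, 0.34 and 0.29 in 4 equal level classes of the 11787 genes that passed, given in order of increasing level.

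The arrays held the glial markers of a glioma line, and few immune markers. VIM, SOX2, NES, CD44, GFAP, EGFR and SLC1A3 passed the filter, while S100B, CHI3L1 and OLIG2 did not. GFAP had 3624 in the miR-31 array and 2007 in the control array (0.85 on the log2 scale). NES had 5877 in the miR-31 array and 11039 in the control array (-0.91), but 0.03 on its other probe set. Of 16 microglia, macrophage and lymphoid markers 14 had a probe set, and only CSF1R, ITGAM and CD79A passed the filter. The summed intensity of the 14 was 687 in the miR-31 array and 500.2 in the control array. The pan-leukocyte marker PTPRC had 17.0 in the miR-31 array and 30.1 in the control array, both below the filter. Of the other immune markers below the filter, TYROBP, CD3D and MS4A1 also had ratios below 0. AIF1, CD14, CX3CR1, CD3E, CD2, NKG7 and GNLY had ratios above 0. The highest was CD14, with 53.0 in the miR-31 array and 4.45 in the control array (1.75). Neuronal markers had 4 of 6 past the filter, with sums of 15813 in the miR-31 array and 15784 in the control array, most of it from TUBB3. SYT1 had 705 in the miR-31 array and 345 in the control array, and SNAP25 had 83.6 in the miR-31 array and 135 in the control array. Of 6 epithelial markers 2 passed, with sums of 3171 in the miR-31 array and 6164 in the control array, most of it from KRT18 (-1.01). Of 6 endothelial markers 2 passed, with sums of 500.4 in the miR-31 array and 735 in the control array, most of it from KDR (-0.90). The part of other cells in the results was not tested. Fewer cells with a transcript and less of it per cell cannot be told apart in such bulk RNA.

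Of the 56 TRIM genes 39 passed the filter, and 4 of these (TRIM22, TRIM14, TRIM6 and TRIM38) were higher with miR-31 by 2-fold or more. Of all 11787 genes that passed, 3.74% were at least 2-fold higher. None of the 39 was at least 2-fold lower, against 1.58% of all genes. The lowest ratios belonged to TRIM3 (-0.82) and TRIM24 (-0.60). At 1.5-fold 9 TRIM genes were higher and 2 lower, and the shares over all genes were 11.7% and 6.73%. The median ratio of the 39 was 0.24, and 30 had a ratio above 0, while over all genes the median was 0.03 and 53.2% had a ratio above 0. When the 24 poly-A spike-in controls, whose own median ratio was 0.55, were used for centring, the TRIM median was -0.31 and that of all genes -0.52. The number at least 2-fold higher was then 2 (TRIM22 and TRIM14). Without probe sets whose names end in _s_at or _x_at, a mark of probes that may read several transcripts, 32 TRIM genes were left and only TRIM6 was at least 2-fold higher, since TRIM22 and TRIM38 had no other probe set and TRIM14 had no other that passed the filter.

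**Figure D1:**
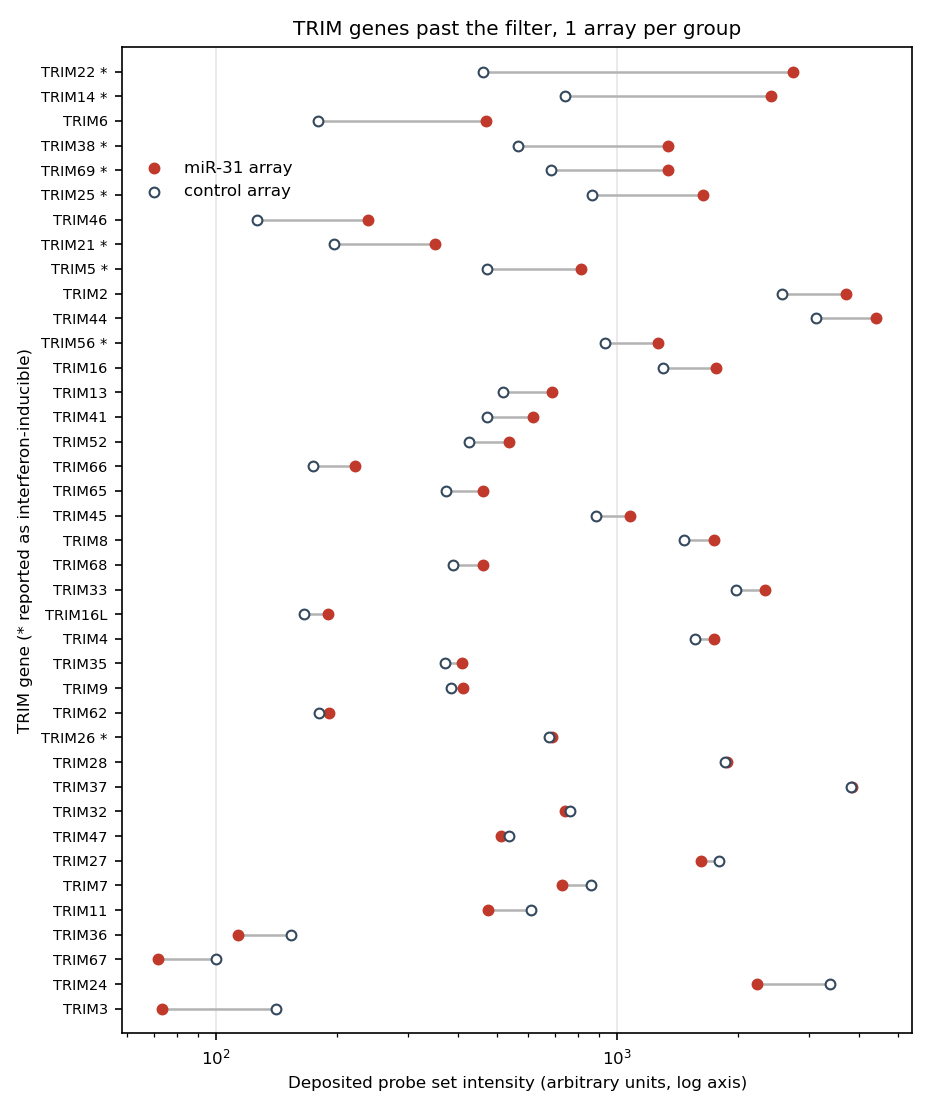
Deposited intensity (x axis, log scale) of the 39 TRIM genes past the filter, ordered by ratio, in the miR-31 array (filled) and the control array (open), with the line joining the 2 values of 1 gene. Asterisks mark members reported as interferon-inducible. The upper rows, from TRIM22 (2743 in the miR-31 array and 463 in the control array) to TRIM5, have the filled point to the right, and the 9 lowest rows have it to the left.

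TRIM22, an interferon-induced SPRY member that restricts transcription of HIV-1 and acts on influenza A virus, had the highest ratio of the family. Its intensity was 2743 in the miR-31 array and 463 in the control array, a ratio of 2.53. It ranked 29 of 11787 genes. It was read by 1 probe set, so no other probe set of the gene bears on the value. Over 11 alternative settings that kept it, its ratio lay between 1.98 and 2.56.

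TRIM14, a member without a RING that joins the antiviral adaptor MAVS at mitochondria, had 2416 in the miR-31 array and 741 in the control array (1.68). It ranked 103. Its other probe sets did not all follow. One had 1148 in the miR-31 array and 429 in the control array (1.39), and the dimmest past the filter had 122 and 125 (-0.03).

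TRIM6, a ligase that builds free ubiquitin chains which activate the kinase IKBKE, had 472 in the miR-31 array and 179 in the control array (1.32), on its only probe set. It was the only member at least 2-fold higher that was not on the interferon list. IKBKE itself had 294 in the miR-31 array and 239 in the control array (0.28), and 0.82 on its other probe set.

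TRIM38 is known to limit innate signalling, among other ways by removing TAB2 and TAB3. It had 1336 in the miR-31 array and 567 in the control array (1.21). Its 4 probe sets all passed the filter and all had positive ratios, between 0.16 and 1.21. TAB2 had a ratio of 0.06, with 0.38 on its other probe set, and TAB3 of 0.16.

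The list of members reported as interferon-inducible held 10 genes, of which 9 had a single-symbol probe set, and all 9 passed the filter with a ratio above 0. Their median was 0.91. Of the 9, 3 were at least 2-fold higher (TRIM22, TRIM14 and TRIM38) and 7 at least 1.5-fold higher, against 3.74% and 11.7% of all genes. The other 30 TRIM genes past the filter had a median of 0.17, with 1 at least 2-fold higher (3.33%) and 2 at least 1.5-fold higher. For so few genes these counts are near the shares of all genes. Membership of the list comes from background knowledge and was set with the ratios of interferon-inducible genes in these arrays known. Its direction is therefore not independent evidence.

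Below 2-fold on this list, TRIM69, which restricts vesicular stomatitis virus, had 1336 in the miR-31 array and 685 in the control array (0.95). Its second probe set past the filter had 90.8 and 91.1 (-0.00). A still dimmer TRIM69 probe set, below the filter, had 54.5 in the miR-31 array and 18.6 in the control array (1.025). TRIM25, a ligase reported to act on the RNA sensor RIG-I and a cofactor of the antiviral protein encoded by ZC3HAV1, had 1640 in the miR-31 array and 866 in the control array (0.91). Its dimmer probe set had 136 and 123 (0.13). In both genes, of the probe sets past the filter, the brighter was close to 2-fold and the dimmer close to 0.

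TRIM21, a cytosolic antibody receptor that sends antibody-coated virus to the proteasome, had 352 in the miR-31 array and 196 in the control array (0.79). TRIM5, which binds the capsids of incoming retroviruses, had 813 in the miR-31 array and 474 in the control array (0.76). A dimmer TRIM5 probe set, below the filter, had a ratio of 0.87. TRIM56, reported to act in cytosolic DNA and RNA sensing, had 1266 in the miR-31 array and 932 in the control array (0.44), and 0.25 on its other probe set. TRIM26, reported to act on IRF3, had 689 in the miR-31 array and 676 in the control array (0.03) although its promoter window held the element on 2 overlapping matches. TRIM21 and TRIM5 thus lay beyond the gauge of 0.33, while TRIM56 lay slightly beyond it on its brightest probe set and TRIM26 within it. The gauge is an SD, and the 75th percentile of all genes was 0.31, so many genes lie beyond it. TRIM21 and TRIM5 were in the level class with a robust SD of 0.43.

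TRIM5, TRIM6, TRIM34 and TRIM22 are neighbours on chromosome 11, and in the RefSeq annotation TRIM5 overlaps TRIM6 and TRIM34. The 3 of them with a single-symbol probe set were all at least 1.5-fold higher, against 11.7% of all genes, and their median was 1.32. Which overlapping transcripts the probes read was not checked. Of 8 TRIM genes on chromosome 11 past the filter 7 had a ratio above 0, the exception being TRIM3. That is near the share in the family, 30 of 39, and over all genes 53.2% had a ratio above 0.

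**Figure D2:**
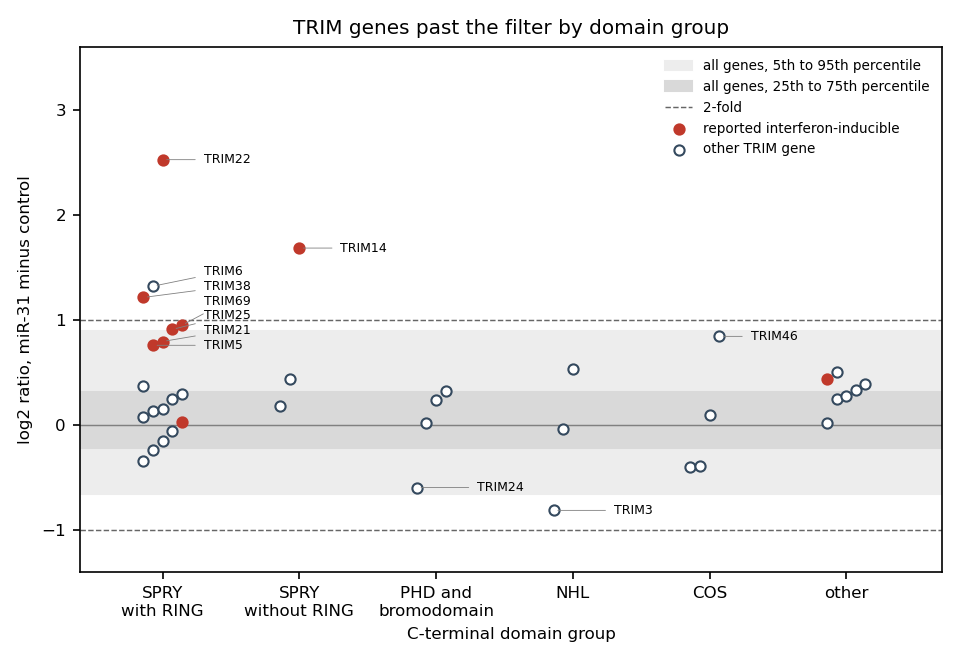
Log2 ratio, miR-31 minus control (y axis), of each TRIM gene past the filter, by C-terminal domain group (x axis). Filled points are reported as interferon-inducible, and the grey bands show where the middle 50% and 90% of all 11787 genes lie. The genes at or above 2-fold (dashed line) are in the SPRY groups, with TRIM22 at 2.53.

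The SPRY members with a RING made up the largest domain group, with 18 past the filter, of which 14 had a ratio above 0 and 3 were at least 2-fold higher, against 53.2% and 3.74% of all genes. Their median was 0.27. Without those on the interferon list the remaining 11 had a median of 0.13. Besides TRIM6, their ratios ran from TRIM41 (0.36) and TRIM65 (0.30), a ligase of the RNA sensor MDA5, down to TRIM7 (-0.24), which binds glycogenin, and TRIM11 (-0.35). TRIM11 had 476 in the miR-31 array and 610 in the control array, but 0.14 on its other probe set. TRIM4, which is reported to act on RIG-I, had 0.15, with -0.30 and -0.47 on 2 dimmer probe sets. TRIM27, TRIM47, TRIM62, TRIM35 and TRIM68 lay between -0.15 and 0.24. Of the SPRY members without a RING, TRIM16, an autophagy factor, had 1759 in the miR-31 array and 1297 in the control array (0.44). TRIM16L, a near copy of TRIM16 whose probes may cross-react, had 0.18.

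The chromatin group lay on both sides of 0. TRIM24, a reader of histone marks and a ligase of p53, had 2234 in the miR-31 array and 3391 in the control array (-0.60). Its other probe sets past the filter had -0.54 and -0.25, so all 3 were lower. TRIM28, the KAP1 co-repressor that silences retroelements with KRAB zinc finger proteins, had 1873 in the miR-31 array and 1854 in the control array (0.01). TRIM33, which binds SMAD proteins, had 2330 in the miR-31 array and 1972 in the control array (0.24), and all 4 of its probe sets were higher. The brightest probe set of TRIM66 had 0.32, while another had 153 in the miR-31 array and 43.3 in the control array (1.51).

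Of 8 KAP1 corepressor genes 0 reached 2-fold in either direction on their representative probe sets. Over all genes 3.74% were at least 2-fold higher and 1.58% at least 2-fold lower, so 0 of 8 is near those shares. The furthest were SETDB1 (0.58, but -0.43 on another probe set), the histone methyltransferase of the complex, and CHD3 (0.44). CBX5, a heterochromatin protein, had 0.17 on its brightest probe set but down to -1.24 over its 5 probe sets past the filter. The median of the 8 was -0.08. The SMAD genes were no more uniform. SMAD2 had -0.23, with its probe sets past the filter between -0.39 and 0.13. SMAD3 had -0.39, with a range up to 0.59. SMAD4 had 0.22, with a range between -0.23 and 0.75.

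The NHL members lay on both sides of 0. TRIM3, reported as a growth suppressor in glioma, had 73.1 in the miR-31 array and 141 in the control array (-0.82), the lowest ratio of the family past the filter. Its level lies in the dimmest of the 4 level classes, where the robust SD of ratios was 0.56, and its 3 other probe sets were below the filter with ratios up to 0.82. TRIM2, a neuronal ligase of neurofilament light chain, had 3710 in the miR-31 array and 2568 in the control array (0.53). All 5 of its probe sets past the filter were higher, between 0.32 and 1.03. TRIM32, a ligase mutated in a form of muscular dystrophy, had -0.04, and TRIM71, a developmental regulator, was below the filter.

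The COS members past the filter were TRIM46, TRIM9, TRIM36 and TRIM67, which are known from neurons or from microtubules. TRIM46, which bundles microtubules at the base of the axon, had 239 in the miR-31 array and 126 in the control array (0.84). It too lies in the dimmest level class, and its other probe set, below the filter, had -0.16. TRIM9 had 0.10, and TRIM36 (-0.39) and TRIM67 (-0.40) were lower. The muscle members TRIM54, TRIM55 and TRIM63 were below the filter, as was TRIM42.

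All 7 members of other domain types past the filter had ratios above 0, up to 0.50 in TRIM44. Over all genes 53.2% had a ratio above 0. TRIM44, which lacks a RING and opposes ubiquitination of its partners, had 4416 in the miR-31 array and 3121 in the control array, but 0.11 on its other probe set. TRIM13, an ER-bound ligase, had 0.39 with 4 probe sets between 0.19 and 0.64, and TRIM52 had 0.33. TRIM45 (0.27) and TRIM8 (0.24), a regulator of cytokine signalling, were near the family median. TRIM37, a centrosome regulator, had 3850 in the miR-31 array and 3816 in the control array (0.01). None of the 7 reached 1.5-fold. Over all genes 11.7% were at least 1.5-fold higher and 6.73% lower, so none of 7 is near those shares. With ratios centred on the poly-A controls all 7 lay below 0, but the median of all genes was then -0.52.

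**Figure D3:**
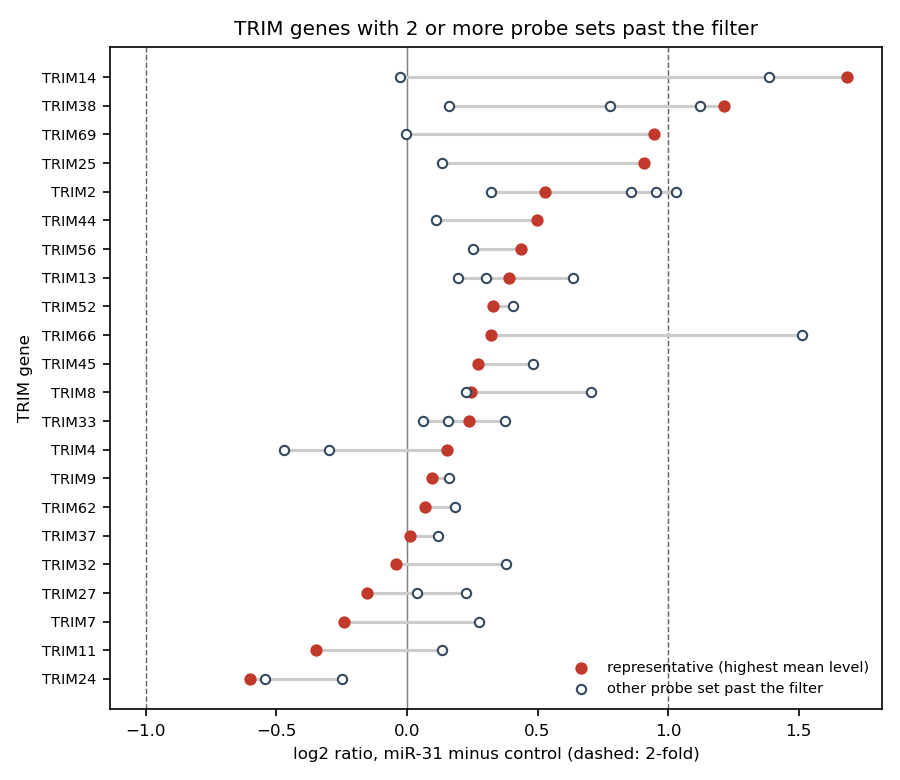
Log2 ratio, miR-31 minus control (x axis), of every probe set past the filter for the 22 TRIM genes that have at least 2 (y axis). Filled points are the representative probe sets and open points the others. TRIM24, at the bottom, has all 3 below 0, and TRIM14, at the top, runs from -0.03 to 1.68.

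Of the 39 TRIM genes past the filter, 22 had at least 2 probe sets past it, and in 15 of these all had the same sign. In the other 7 (TRIM14, TRIM69, TRIM4, TRIM32, TRIM27, TRIM7 and TRIM11) the signs were mixed. The family was read by 130 single-symbol probe sets in all, 75 of them past the filter. Averaging the ratios over a gene's probe sets past the filter left TRIM22, TRIM14 and TRIM6 at least 2-fold higher and moved TRIM38 to 0.82.

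The remaining 17 members were below the filter, and whether their transcripts were detected was not tested. Their intensities reached at most 61.8. They include TRIM63, TRIM54 and TRIM72 of muscle, TRIM10 and TRIM58, known from red cell precursors, and TRIM29 and TRIM31, known from epithelia. The others were TRIM15, TRIM17, TRIM40, TRIM42, TRIM50, TRIM51, TRIM55, TRIM59, TRIM61 and TRIM71. Ratios ran from -1.24 in TRIM51 (2.54 in the miR-31 array and 27.7 in the control array) to 1.25 in TRIM54 (29.6 in the miR-31 array and 3.19 in the control array). These were the only 2 of the 17 past 2-fold, and without a filter 5.99% of all genes were at least 2-fold higher and 5.07% at least 2-fold lower. At 1.5-fold the shares of all genes without a filter were 14.8% higher and 12.6% lower.

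Family members with other names were set beside them. PML, the organiser of PML nuclear bodies and also known as an interferon-induced gene, had 670 in the miR-31 array and 296 in the control array (1.14), with 8 probe sets between 0.00 and 1.37. MID1 and MID2, microtubule-binding COS members, had -0.10 and 0.00, with other probe sets down to -0.44 in MID1 and up to 0.44 in MID2. MEFV, TRIML1 and TRIML2 were below the filter.

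Other genes with which the TRIM ligases work were read in the same way. Of 19 ubiquitin-activating and conjugating enzymes and ubiquitin genes 10 had a single-symbol probe set, and their representative probe sets lay between -0.32 (UBE2V2, but up to 0.76 on another probe set) and 0.41 (UBE2E2). UBE2N, a conjugating enzyme for lysine-63-linked chains used by several TRIM ligases, had -0.21, and up to 0.39 on another probe set. Of 19 genes known as substrates or partners 2 were at least 2-fold higher and 0 at least 2-fold lower, against 3.74% and 1.58% of all genes. At 1.5-fold 3 were higher, against 11.7% of all genes. RIGI, the sensor reported as a target of TRIM25, had 3058 in the miR-31 array and 336 in the control array (3.12), with its 3 probe sets between 0.03 and 3.12. IFIH1, which encodes MDA5, had 3.26, and 1.27 on its other probe set past the filter. The third was SQSTM1, an autophagy receptor, with 6450 in the miR-31 array and 4181 in the control array (0.62) and 4 probe sets between 0.45 and 0.80. ZC3HAV1 had 0.37 and STING1, the adaptor of DNA sensing, 0.22, but other probe sets of these genes reached 1.2 and 1.07. MAVS, the adaptor joined by TRIM14, had 0.09, with 4 probe sets between -0.40 and 0.26, and the list median was 0.13.

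Of the factors that carry the interferon signal to such genes, 9 of 11 had a single-symbol probe set and 7 passed the filter. IRF9, the DNA-binding subunit of the complex that binds the element shown above, had 1979 in the miR-31 array and 475 in the control array (2.02). IRF1, which binds related elements, had 602 in the miR-31 array and 352 in the control array (0.75). IFNAR1 (-0.17) and IFNAR2 (0.31), the receptor chains, and the kinases JAK1 (0.25) and TYK2 (-0.07) lay within the noise gauge on their representative probe sets. Other probe sets went beyond it, down to -0.84 for IFNAR1 and -0.63 for IFNAR2 and up to 0.61 for JAK1. IRF2, a factor related to IRF1, had 172 in the miR-31 array and 224 in the control array (-0.35). IFNB1, interferon beta, had 1.88 in both arrays, below the filter.

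The RNF genes, another large set of RING ligases named by symbol alone and added after the TRIM values were seen, were compared in the same way. Of 53 past the filter 0 were at least 2-fold higher and 0 at least 2-fold lower, against 3.74% and 1.58% of all genes. At 1.5-fold 3 were higher, against 11.7% of all genes, and the median ratio was 0.04. The difference between the families was not tested, since each group has 1 array.

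**Figure D4:**
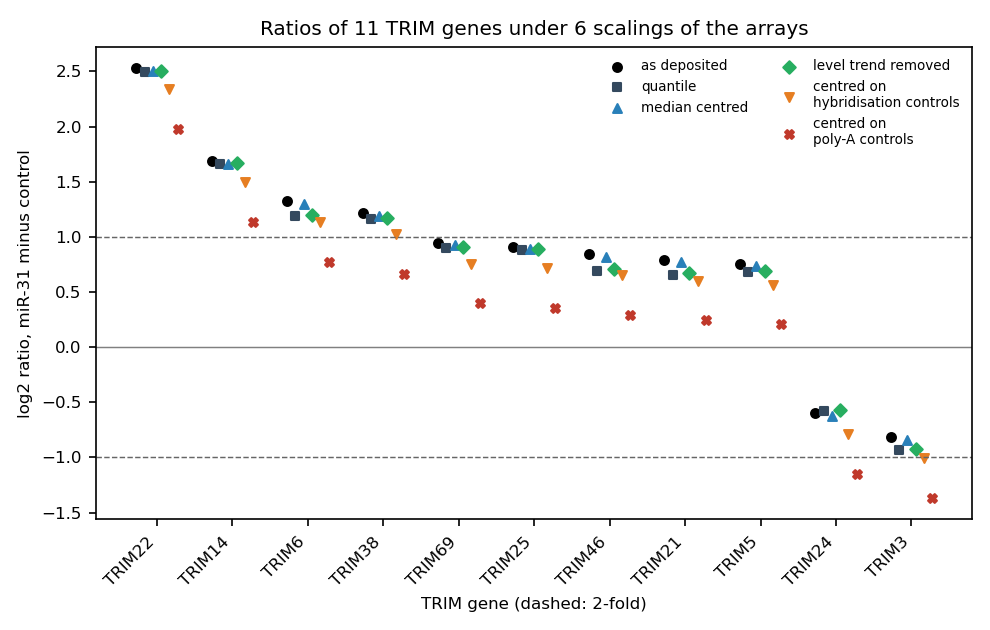
Log2 ratio, miR-31 minus control (y axis), of the 9 TRIM genes at least 1.5-fold higher and the 2 at least 1.5-fold lower (x axis), on the deposited scale and under 5 other scalings. All 11 keep their sign, and TRIM22 lies between 1.98 and 2.53.

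The 9 TRIM genes at least 1.5-fold higher kept ratios above 0 under those of the 12 alternative settings that gave them a value. Several of these settings could not have changed a sign. The pseudocounts, the filters and the 1.5-fold threshold leave the sign of a probe set's ratio as it is. Taking the mean of probe sets changes nothing for a gene with 1 probe set past the filter. Under the poly-A centring TRIM5 had 0.21 and TRIM3 -1.37. Of the 39 members 15 kept their sign throughout: these 9, and TRIM47, TRIM11, TRIM36, TRIM67, TRIM24 and TRIM3 below 0. The other 24, among them TRIM2, TRIM44 and TRIM33, changed sign under at least 1 setting.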

How the data were processed

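The table the authors deposited holds an intensity on a linear scale for each of 54675 probe sets on 2 arrays, 1 for each group. The software and its settings were not given in the sources used here. A mean taken after leaving out 2% of probe sets at each end was 500.1 on both arrays, so they had been scaled to a common level. The number of arrays limits the precision, and no detection calls were used.

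Of the probe sets, 41097 carried 1 symbol in the platform annotation (41043 matched RefSeq by Entrez identifier, with 0 symbols changed), 1801 several and 11777 none here. The 62 control probe sets were left out. Ratios, the filter and the 2-fold count were computed as described above, and tested on simulated data. No test was run, because each group has 1 array. Members and lists were chosen with earlier results of these data known. All members could be named. Of other lists, genes past 2-fold and the 2 with the largest ratio were named first, and further partners were chosen after their values were seen. Alternatives were centring on the median, quantile normalization, a loess fit against level (span 0.3), centring on hybridisation or poly-A controls, pseudocounts of 1 and 64, no filter, a stricter filter, the mean of probe sets, leaving out _s_at and _x_at probe sets, and 1.5-fold. Calculations used pandas 2.3.3 and numpy 2.4.6 under Python 3.11.15, with loess from statsmodels 0.14.6 and plots from matplotlib 3.10.9.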

Additional observations from a re-analysis of the deposited data

Results flagged for a closer look

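The array also holds 13 probe sets whose annotation joins a TRIM symbol to 1 or more other symbols, which were assigned to no gene. Of these 4 passed the filter on low values, and 1 of them carried the 2 symbols TRIM34 and TRIM6-TRIM34. It had 272 in the miR-31 array and 80.0 in the control array, a log2 ratio of 1.59. It stands here because it is a signal in data that the comparisons above do not use. TRIM34 is the gene of the interferon list without a single-symbol probe set. The other 3 probe sets past the filter lay between -0.17 and 0.04.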

How the results depend on the processing

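No paired analysis was possible because the groups hold 1 array each, which also leaves none to omit. The 4 TRIM genes at least 2-fold higher became 2 with centring on the poly-A controls, 1 when probe sets ending in _s_at or _x_at were dropped, 9 at 1.5-fold, and 1 without the members reported as interferon-inducible, an alternative chosen after seeing the data. The number became 5 without a filter and 3 with the mean of probe sets, and it was 4 under the other 7 alternatives. The 0 at least 2-fold lower became 1 with centring on the hybridisation controls (TRIM3), 2 on the poly-A controls (TRIM3 and TRIM24), 1 without a filter (TRIM51) and 2 at 1.5-fold. The median ratio of 0.24 became 0.055 centred on the hybridisation controls, -0.31 on the poly-A controls and 0.13 when those probe sets were dropped, and lay between 0.17 and 0.30 under the other settings. Centring on a control class shifts every gene by the same amount (-0.19 and -0.55). The filter and threshold settings change by construction how many genes can count. Over all genes the share at least 2-fold higher was 1.05% and at least 2-fold lower 10.9% with the poly-A centring. Whether the 17 members below the filter were detected was not tested.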
